A study of Mus musculus with 18 samples.

Results

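The 9 genes described here mark and equip plasma cells, the antibody-secreting end stage of the B cell lineage. They are Irf4, Prdm1, Xbp1 and Pou2af1, which regulate transcription, Sdc1 and Tnfrsf17, which encode surface proteins, and Jchain, Mzb1 and Derl3, which serve antibody assembly and secretion. They were taken by symbol, without immunoglobulin genes. All 9 were listed in both of the authors' deposited tables, among 14423 genes for bone marrow and 21830 for spleen.

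A B cell that becomes a plasma cell raises IRF4 and BLIMP1, the product of Prdm1, and shuts off much of its B cell program. XBP1, made from an mRNA that IRE1 splices when the endoplasmic reticulum is stressed, then enlarges the secretory apparatus. Long-lived plasma cells lodge in bone marrow, while the spleen holds both short-lived plasmablasts and the B cells that give rise to them. None of the 9 genes is expressed by plasma cells alone. Irf4 and Prdm1 are also used by T cells and dendritic cells, Xbp1 by many secretory and myeloid cells, and Mzb1 and Pou2af1 by B cells.

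RNA came from dissociated cells of C57BL/6 mice and was read by QuantSeq, which counts a tag near the polyadenylated end of each transcript, so that counts do not scale with transcript length. Bone marrow was compared between 4 libraries from Cgas-/- mice, which lack the DNA sensor cGAS, and 4 from Trex1-/-;Sting1gt/gt mice, called dKO. The dKO mice lack the DNA exonuclease TREX1, and their Sting1 gene has the goldenticket mutation, so that STING does not work. The spleen libraries came from lethally irradiated dKO mice 12 weeks after transplantation, 5 from recipients of Cgas-/- marrow and 5 from recipients of dKO marrow. Spleen cells that survived irradiation in both groups are therefore of dKO genotype. Fold changes are Cgas-/- over dKO, or Cgas-/- marrow over dKO marrow. No group was wild type, so each difference is between mutants. The targeted genes checked the labels, since the authors' deposited tables put Trex1 at a log2 fold change of 1.45 ± 0.178 in bone marrow and 2.71 ± 0.199 in spleen, with Cgas at -1.13 ± 0.155 and -0.92 ± 0.217 (standard errors, as throughout, each past a DESeq2 adjusted p of 0.05). Of the marker genes, Mpo of neutrophil precursors averaged 11486 normalized counts in the authors' deposited bone marrow table, and the complement receptor gene Cr2, of mature B cells, averaged 5789 in the authors' deposited spleen table. The bone marrow list does not hold the spleen stromal genes Cxcl13 and Madcam1, and the spleen list gives them means of 4.98 and 2.46 in the authors' deposited table. The bone marrow list is the shorter and its gene filter is unknown, so absence of such low genes from it does not mark the tissue. The tables give 1 mean per gene over all compared libraries, so library depths are unknown. Group means given below are those implied by the authors' mean and fold change for groups of equal size, and carry no SD.

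None of the 9 plasma cell genes passed the DESeq2 test at an adjusted p of 0.05 in either tissue. Over all genes, 0.534% passed in bone marrow (77 of 14423) and 0.133% in spleen (29 of 21830), so a list of 9 with no call is not set apart from the rest. At an unadjusted p under 0.05, 1 of 9 members was lower in bone marrow and none higher, beside 4.65% of all genes lower and 4.19% higher. In spleen, 1 of 9 was lower and none higher, beside 1.85% and 1.17% of all genes. These members were Xbp1 in marrow and Prdm1 in spleen. Members with a log2 fold change below 0 numbered 6 of 9 in bone marrow, beside 50.5% of all genes, and 8 of 9 in spleen, beside 55% of all genes. The median of the members was -0.19 in bone marrow and -0.15 in spleen, where the medians over all genes were -0.002 and -0.03. No member differed by 1.5-fold or more between the groups, and the largest fitted difference was 1.31-fold in marrow (Sdc1) and 1.34-fold in spleen (Prdm1). These are bulk samples, so plasma cell number, RNA per cell and other cells that express these genes cannot be told apart as sources of a value.

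**Figure D1:**
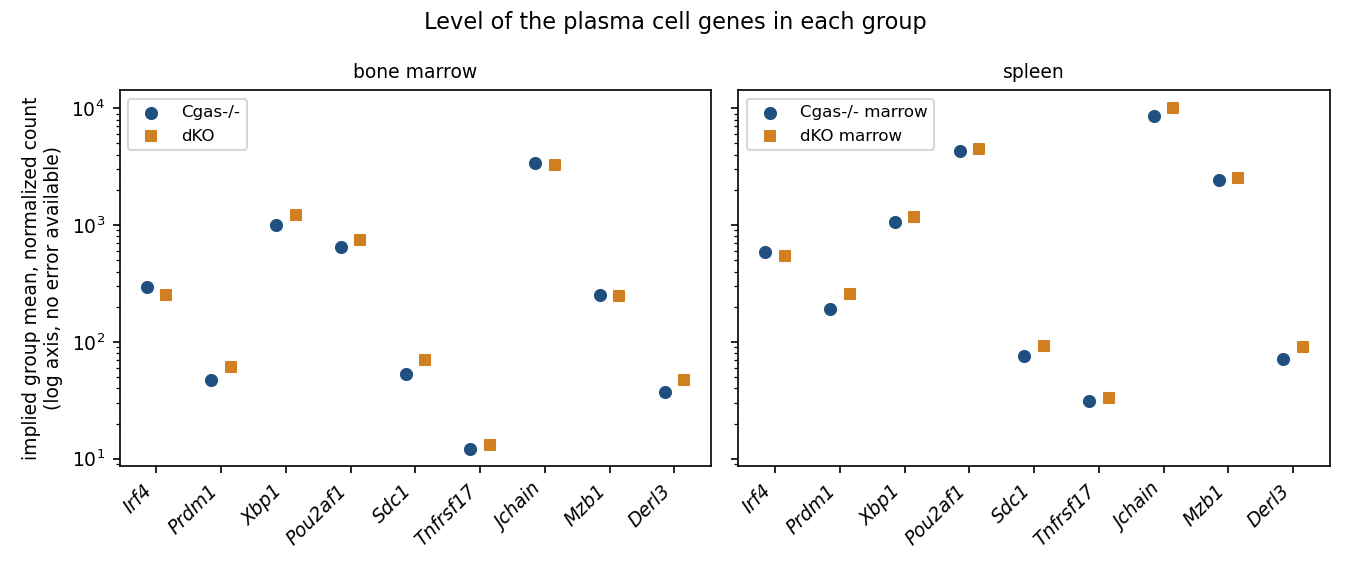
Level of the 9 plasma cell genes in each group, as the normalized count implied by the authors' mean and fold change (log axis, no error available), for bone marrow on the left and spleen on the right. Circles are Cgas-/- or Cgas-/- marrow and squares are dKO or dKO marrow; Jchain is the highest and Tnfrsf17 the lowest in both tissues.

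The members spanned a wide range of levels. In the authors' deposited bone marrow table their means ran between 12.6 normalized counts for Tnfrsf17 and 3341 for Jchain, and in the spleen table between 32.1 and 9341 for the same genes. Jchain ranked 29 from the top of the spleen table and 320 from the top of the bone marrow table. Pou2af1 ranked 88 in spleen and 2089 in marrow, and Mzb1 197 and 5073. Xbp1 was close in rank, at 704 in spleen and 1224 in marrow. The tables were normalized separately, so these ranks are given side by side and the levels are not compared across tissues.

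Among the regulators, Irf4 encodes a transcription factor that at high level drives plasma cell differentiation. It averaged 296 normalized counts in Cgas-/- marrow and 251 in dKO marrow, and 591 in spleens with Cgas-/- marrow and 542.5 in spleens with dKO marrow. Irf4 was the 1 member with a log2 fold change above 0 in both tissues. The authors' deposited tables gave 0.24 ± 0.171 in bone marrow (DESeq2 adjusted p = 0.797) and 0.12 ± 0.109 in spleen (DESeq2 adjusted p of nearly 1). The gene lies on chromosome 13 at 30749226 to 30766976, plus strand (GRCm38, GENCODE M21, as for all genes here).

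Prdm1 encodes BLIMP1, the repressor that ends the B cell program. Group means were 190 normalized counts in spleens with Cgas-/- marrow and 255 in spleens with dKO marrow, and 47.2 in Cgas-/- marrow and 61.4 in dKO marrow. In spleen the authors' deposited table gave -0.42 ± 0.154, with an unadjusted p of 0.00578 and a DESeq2 adjusted p of nearly 1. The 95% interval of that fold change ran between 0.605 and 0.918, but the value did not pass once adjusted over all genes of the table. In bone marrow the authors' deposited table gave a like value with a wider error, -0.38 ± 0.333 (DESeq2 adjusted p = 0.864). Prdm1 lies on chromosome 10 at 44437177 to 44528501, minus strand.

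Xbp1 encodes the transcription factor of the secretory program. Its group means were 1011 normalized counts in Cgas-/- marrow and 1221 in dKO marrow, a 1.21-fold lower level in Cgas-/- cells. The authors' deposited table gave -0.27 ± 0.0986 in bone marrow, with an unadjusted p of 0.00575, and the DESeq2 adjusted p was 0.257. It was the member with the smallest adjusted p in that tissue. In spleen the group means were 1056 with Cgas-/- marrow and 1173 with dKO marrow, and the authors' deposited table gave -0.15 ± 0.148 (unadjusted p = 0.305). Counts of tags near the end of the transcript do not tell spliced from unspliced Xbp1 mRNA. Xbp1 lies on chromosome 11 at 5520659 to 5525893, plus strand.

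Pou2af1 encodes OBF1, the coactivator that B lineage cells use with octamer-binding factors. It averaged 652 normalized counts in Cgas-/- marrow and 746 in dKO marrow, and 4314 in spleens with Cgas-/- marrow and 4503 in spleens with dKO marrow. The authors' deposited tables gave -0.19 ± 0.121 in marrow (DESeq2 adjusted p = 0.715) and -0.06 ± 0.0625 in spleen (unadjusted p = 0.320). The spleen value is the tightest of all members, with a fold change between 0.880 and 1.04 at 95%. Pou2af1 lies on chromosome 9 at 51213708 to 51240080, the chromosome that also holds Cgas and Trex1, 27.2 Mb from the start of Cgas and 57.8 Mb from that of Trex1. An intronic transcript, Gm47828, is annotated within it on the same strand.

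Sdc1 encodes syndecan-1, or CD138, the surface proteoglycan by which plasma cells are usually sorted. The groups averaged 53.5 normalized counts in Cgas-/- marrow and 70.2 in dKO marrow, and 76.3 in spleens with Cgas-/- marrow and 92.1 in spleens with dKO marrow. Both values were lower in Cgas-/- samples without passing the test. They were -0.39 ± 0.353 in bone marrow (DESeq2 adjusted p = 0.868) and -0.27 ± 0.242 in spleen (unadjusted p = 0.263), by the authors' deposited tables. Tnfrsf17 encodes BCMA, the receptor for APRIL and BAFF that keeps marrow plasma cells alive. It was the lowest member, with group means of 12.1 normalized counts in Cgas-/- marrow and 13.2 in dKO marrow, and 31.0 in spleens with Cgas-/- marrow and 33.2 in spleens with dKO marrow. Its log2 fold changes were -0.13 ± 0.648 and -0.10 ± 0.300 in the authors' deposited tables for bone marrow and spleen. At these counts the 95% interval of the Tnfrsf17 fold change in marrow was wide, between 0.379 and 2.21. Sdc1 lies on chromosome 12 at 8771323 to 8793715 and Tnfrsf17 on chromosome 16 at 11313812 to 11320074, both on the plus strand.

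Jchain encodes the joining chain that links IgA and IgM monomers into polymers. The groups averaged 3427 normalized counts in Cgas-/- marrow and 3254 in dKO marrow, and 8554 in spleens with Cgas-/- marrow and 10129 in spleens with dKO marrow. The authors' deposited tables gave 0.07 ± 0.620 in bone marrow (DESeq2 adjusted p = 0.998) and -0.24 ± 0.256 in spleen (unadjusted p = 0.340). Mzb1 encodes a chaperone of the endoplasmic reticulum that assists immunoglobulin folding and is also high in marginal zone B cells. Its group means were nearly equal, at 249.8 normalized counts in Cgas-/- marrow and 247.8 in dKO marrow, and 2424 in spleens with Cgas-/- marrow and 2512 in spleens with dKO marrow. The authors' deposited tables gave 0.01 ± 0.195 in marrow and -0.05 ± 0.110 in spleen. With 95% limits of 0.831 and 1.12 on the fold change, Mzb1 in spleen leaves room for only small differences. Jchain lies on chromosome 5 at 88519809 to 88527891, minus strand. Mzb1 lies on the minus strand of chromosome 18 and overlaps SPATA24 on the same strand, so tags of these genes may not be fully separated. Whether the overlap reaches the tagged ends was not tested.

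Derl3 encodes derlin-3, a membrane protein of the pathway that removes misfolded proteins from the endoplasmic reticulum, and is induced by the unfolded protein response. Its group means were 37.1 normalized counts in Cgas-/- marrow and 47.0 in dKO marrow, and 71.5 in spleens with Cgas-/- marrow and 91.3 in spleens with dKO marrow. The authors' deposited tables gave -0.34 ± 0.711 in bone marrow and -0.35 ± 0.245 in spleen (DESeq2 adjusted p = 0.970 in marrow, unadjusted p = 0.150 in spleen). The point estimates nearly coincide and the marrow error is much the larger. Derl3 lies on chromosome 10 at 75893413 to 75895941, plus strand.

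**Figure D2:**
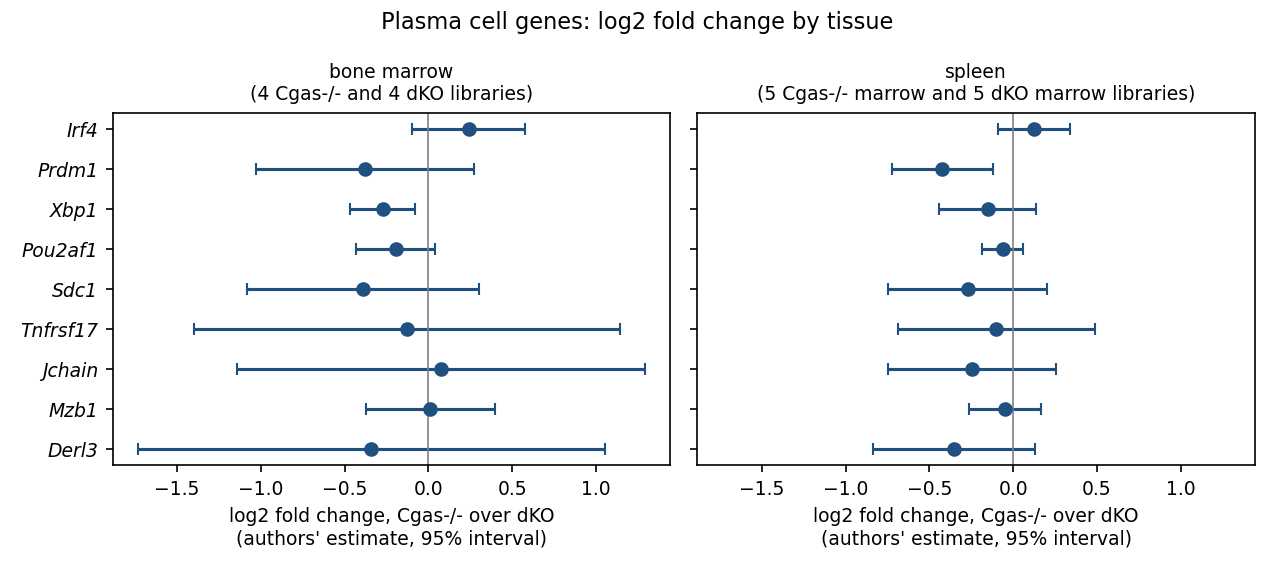
Log2 fold change (x axis, Cgas-/- over dKO, authors' DESeq2 estimate) of each plasma cell gene in bone marrow on the left and spleen on the right, with bars for the 95% interval. All spleen intervals stay within 1 of 0, whereas those of Jchain, Derl3 and Tnfrsf17 in marrow span 0 widely on both sides.

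Promoters of the members were read for motifs of the factors above, as a description of sequence only. RefSeq windows of 300 bases (250 before to 50 after the start, GRCm38.p6) were matched for 8 of the 9 genes, all but Mzb1. The endoplasmic reticulum stress element, or ERSE, is CCAAT and CCACG with 9 bases between them, and ATF6 and XBP1 bind it together with NF-Y. It occurred on either strand in 39 of 32851 promoter windows (0.119%). Derl3 was the 1 member with it, in the window at chr10:75893148-75893447 on the plus strand. The XBP1-type motif TGACGTG occurred in 2.01% of windows and in 1 member, Pou2af1, at chr9:51213440-51213739 on the plus strand. Its last letters overlap a reverse match to CCACG, the shared core, which occurred in 32.8% of windows and in 5 of 8 members, also inside the Derl3 element. GAAA repeated with 2 bases between, a motif of interferon regulatory factors, occurred in 3.44% of windows and in 1 member, Tnfrsf17. The octamer ATGCAAAT (1.74% of windows) and the BLIMP1-type AAGTGAAAG (0.444%) were in none of the 8 windows. The Derl3 and Pou2af1 promoters are shown because they hold the 2 XBP1-type elements, and that of Jchain, with no match to any of these motifs (chr5:88527848-88528147, minus strand), because it is the most abundant member. Capitals mark every match to a motif on either strand.
Derl3 promoter: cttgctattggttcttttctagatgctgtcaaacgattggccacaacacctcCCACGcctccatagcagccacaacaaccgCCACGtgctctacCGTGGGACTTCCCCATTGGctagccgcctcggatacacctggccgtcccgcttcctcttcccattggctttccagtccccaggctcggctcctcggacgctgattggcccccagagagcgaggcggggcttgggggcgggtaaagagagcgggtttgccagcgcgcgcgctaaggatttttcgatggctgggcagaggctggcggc
Pou2af1 promoter: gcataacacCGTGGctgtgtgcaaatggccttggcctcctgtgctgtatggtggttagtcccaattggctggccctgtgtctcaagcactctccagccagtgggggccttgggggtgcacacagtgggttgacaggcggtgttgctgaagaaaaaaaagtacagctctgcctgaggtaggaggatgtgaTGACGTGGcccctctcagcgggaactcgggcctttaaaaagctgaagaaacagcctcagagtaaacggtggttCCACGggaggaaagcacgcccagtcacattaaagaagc
Jchain promoter: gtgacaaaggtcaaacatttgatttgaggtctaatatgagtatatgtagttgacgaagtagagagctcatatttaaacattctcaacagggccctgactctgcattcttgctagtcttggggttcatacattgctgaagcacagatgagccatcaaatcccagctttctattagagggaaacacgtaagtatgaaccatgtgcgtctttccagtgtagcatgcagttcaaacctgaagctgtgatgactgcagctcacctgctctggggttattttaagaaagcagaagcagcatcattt

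The members differed widely in precision. The standard error of each was set beside those of the 200 genes nearest in mean count in the same table. In bone marrow, 8 of 9 members were at or above the 90th percentile of such genes, beside 10.4% of all genes. Of the lists described below, 13 of 26 B cell identity genes, 8 of 15 T cell markers and 6 of 10 erythroid markers were too. Only 4 of 50 secretory genes and 1 of 10 germinal centre genes were. Large errors in marrow were therefore not particular to the members. Jchain stood out in bone marrow, with an error 7.98 times the median of its neighbours (0.620 against 0.0777). Read back from the errors of the authors' deposited table, libraries of a group would vary by about 60.8% of the mean for Jchain in marrow, beside 7.61% for genes of its level. For Derl3 the figures were 69.7% and 30.6%, and its error was above that of all 200 neighbours. Sdc1 (34.6% beside 25.7%) and Mzb1 (19.1% beside 14.1%) stood above their neighbours by less. Xbp1, with 9.67% beside 8.95%, varied close to genes of its level.

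In spleen, 5 of 9 members were at or above that percentile, beside 10.5% of all genes. So were 10 of 10 erythroid, 10 of 12 neutrophil granule and 11 of 15 T cell markers, and 7 of 12 germinal centre genes. Only 8 of 50 secretory genes and 1 of 26 B cell identity genes were. Jchain varied by about 28.01% of the mean, beside 9.28% for genes of its level, in the spleen libraries. Xbp1 varied by 16.2% beside 9.27%, and Derl3 by 26.9% beside 18.4%. Pou2af1 was the exception, with 6.85% beside 9.28%, and its error was above those of 13.5% of its neighbours. The errors do not show which library is high or low, nor whether 1 library makes the spread.

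**Figure D3:**
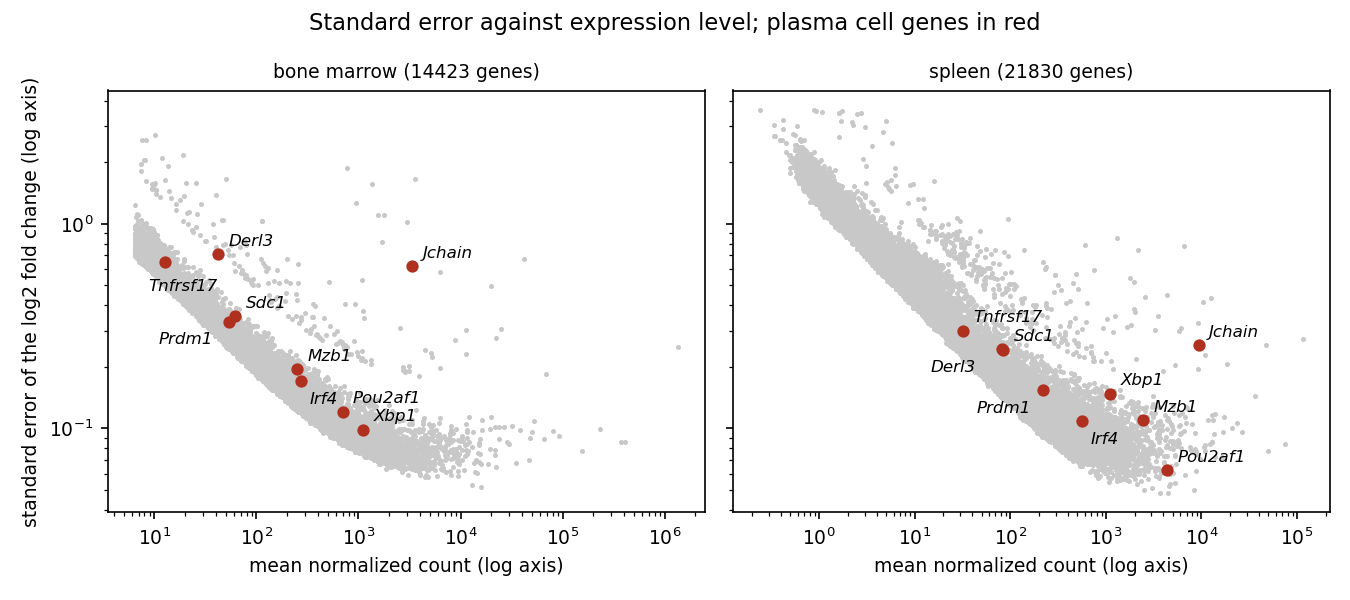
Standard error of the log2 fold change (y axis, log scale) against mean normalized count (x axis, log scale) for every gene of the authors' deposited tables, with the plasma cell genes in red and named. Jchain lies far above genes of its level in both tissues and Derl3 does so in bone marrow.

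The errors set what could have been called. The smallest absolute Wald statistic among called genes was 3.65 in bone marrow and 4.10 in spleen. With its own error, Pou2af1 in spleen would have passed from a 1.19-fold difference and Xbp1 in marrow from 1.28-fold. In marrow Derl3 would have needed 6.03-fold, Tnfrsf17 5.15-fold, Jchain 4.79-fold, Sdc1 2.44-fold and Prdm1 2.32-fold. In spleen Tnfrsf17 would have needed 2.35-fold, Jchain 2.07-fold and Derl3 2.01-fold. The 95% interval stayed within 1 on the log2 scale, which is 2-fold in either direction, for 4 of 9 members in bone marrow (Xbp1, Mzb1, Irf4 and Pou2af1), beside 75.6% of all genes. In spleen it did so for 9 of 9, beside 52.4% of all genes, many of them at low counts. A fitted 2-fold difference in any of these 5 genes in marrow, or these 3 in spleen, would not have passed the test.

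The tissues were then compared directly, by subtracting each gene's bone marrow log2 fold change from its spleen value, with a normal test of the difference. None of the 9 members differed at an adjusted p of 0.05, beside 0.0581% of the 13776 genes listed in both tables, and none had an unadjusted p under 0.05 (4.8% of all genes). The signs were alike for 7 members and opposite for Jchain and Mzb1. In marrow Jchain was at 0.07 ± 0.620 and Mzb1 at 0.01 ± 0.195, so their signs there are not settled. The share of all genes with like signs was not counted, so the 7 members are not set beside a baseline. The largest difference was -0.32 ± 0.671 for Jchain, with a 95% interval between -1.63 and 0.996. The tightest was 0.13 ± 0.136 for Pou2af1, between -0.13 and 0.40. The comparisons share no library.

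Genes around the plasma cell program were read in lists. Of 30 other plasma cell genes, neither of the authors' deposited tables called any by DESeq2. Their medians were -0.01 in bone marrow and -0.08 in spleen, with 16 of 30 and 21 of 30 below 0. At an unadjusted p under 0.05, 3 were lower and none higher in marrow, and 2 were lower and 1 higher in spleen. Over all genes, 50.5% were below 0 in marrow and 55% in spleen. At that unadjusted p, 4.65% of all genes were lower and 4.19% higher in marrow, and 1.85% and 1.17% in spleen. At an adjusted p of 0.05, 0.534% passed in marrow and 0.133% in spleen. These shares also stand beside the counts of each list below. Ly6k, a surface protein gene of the Ly6 family, had the smallest p of the list in both tissues, at -1.83 ± 0.567 in marrow (DESeq2 adjusted p = 0.128) and -0.57 ± 0.243 in spleen, by the authors' deposited tables. Ebi3, which encodes a subunit of IL-27 and IL-35, was at -0.26 ± 0.110 in marrow, and the survival gene Mcl1 at 0.15 ± 0.0656 in spleen, in the authors' deposited tables, neither past adjustment by DESeq2.

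Genes of the secretory machinery that XBP1 and ATF6 induce had medians near 0. The 50 such genes had log2 fold changes between -0.25 and 0.43 in marrow and between -0.64 and 0.27 in spleen. The lowest spleen value was that of Srp54a, named after its value was seen, at a mean of 0.654 normalized counts and an error of 2.36. The next lowest in spleen was -0.26. Of the 50 genes, 27 were below 0 in each tissue, with medians of -0.02 in both, and the authors' deposited tables called none by DESeq2. At an unadjusted p under 0.05, 1 was higher and none lower in marrow, and 1 was higher and 2 lower in spleen. Spcs3, a signal peptidase subunit, was at 0.43 ± 0.135 in marrow (DESeq2 adjusted p = 0.143), while Xbp1 itself was at -0.27, in the authors' deposited table. The co-chaperone gene Dnajb9 had 0.36 ± 0.184 in marrow in the authors' deposited table. In spleen the disulfide isomerase gene Pdia3 had 0.25 ± 0.109 and the cargo receptor gene Lman1 -0.26 ± 0.101 in the authors' deposited table, without passing DESeq2 adjustment.

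The B cell genes that BLIMP1 is known to shut off, or that name the B cell, did not pass either. Of 26, 18 were above 0 in marrow (median 0.05) and 16 in spleen (median 0.02), and at an unadjusted p under 0.05 there was 1 higher in marrow, and 1 higher and 1 lower in spleen, in the authors' deposited tables. Ets1, a transcription factor gene that restrains plasma cell differentiation in mice, had 0.24 ± 0.104 and the lineage factor gene Ebf1 0.21 ± 0.113 in marrow in the authors' deposited table. In spleen the BCR co-receptor gene Cd72 had 0.21 ± 0.0704 (DESeq2 adjusted p = 0.958) and the IgE receptor gene Fcer2a -0.21 ± 0.0893 in the authors' deposited table. Germinal centre genes had medians of 0.18 and 0.17, with 7 of the 10 listed in marrow and 11 of the 12 in spleen above 0. None passed the DESeq2 test, and at an unadjusted p under 0.05 there was 1 higher in marrow and none in spleen. Tfap4, a transcription factor gene of dividing B cells, had 0.75 ± 0.240 in marrow (DESeq2 adjusted p = 0.149) and 0.26 ± 0.171 in spleen, by the authors' deposited tables. The genes with the next smallest p of the list were below 0. They were Neil1 in marrow, at -0.35 ± 0.245, and Sugct in spleen, at -0.72 ± 0.529 and a mean of 6.70 normalized counts.

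Immunoglobulin constant genes, the main product of plasma cells, had 9 of 12 members below 0 in marrow (median -0.36) and 8 of 12 in spleen (median -0.16), and the authors' deposited tables called none by DESeq2. At an unadjusted p under 0.05, 1 was lower in marrow (Ighe, at -2.57 ± 0.957 and a mean of 7.09 normalized counts), and 2 were lower and 1 higher in spleen. The higher one was the light chain gene Iglc3, at 0.20 ± 0.0880 in the authors' deposited table. Ighg2b in spleen had -1.01 ± 0.441 and Ighg2c -1.58 ± 0.743 in the authors' deposited table (unadjusted p = 0.0223 and 0.0333), Ighg2c being named after its value was seen. Their standard errors were wider than the 0.256 of Jchain in spleen. In marrow all 12 were at or above the 90th percentile of genes of like level, and in spleen 9 of 12. Implied variation between libraries in marrow ran between 13.3% of the mean for Ighd, the isotype of mature B cells, and 124% for Ighg3, both named after their values were seen, with 60.8% for Jchain. The Ighg genes are similar in sequence, so their single values are uncertain.

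**Figure D4:**
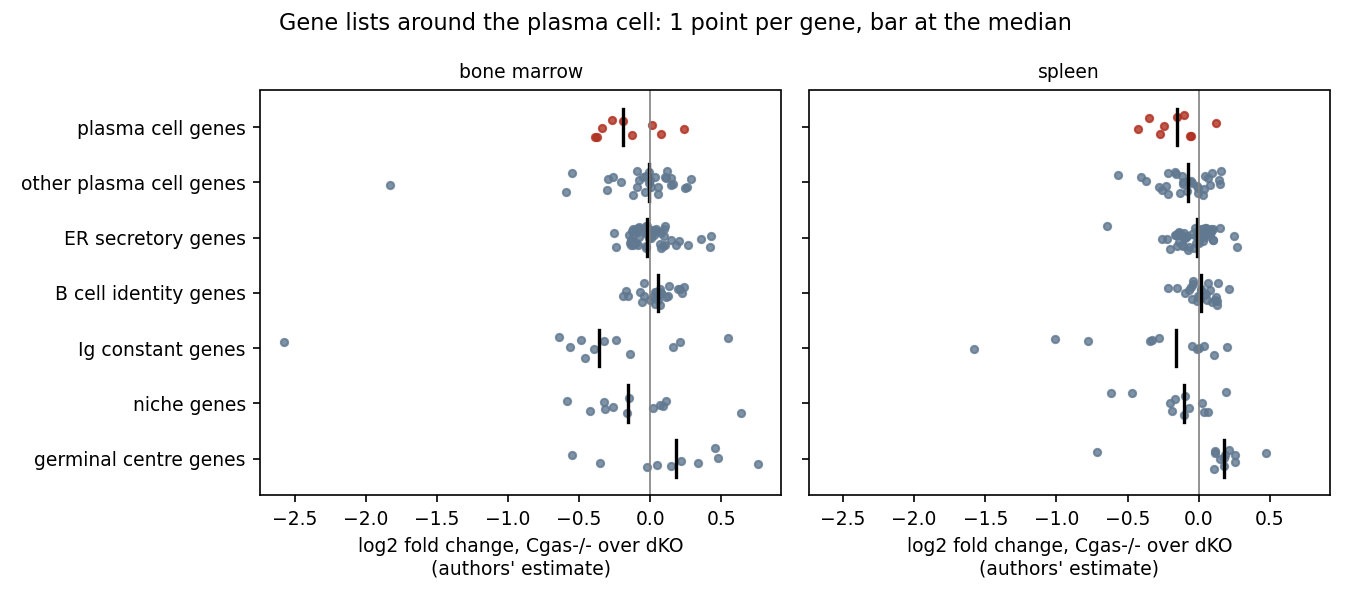
Log2 fold change (x axis, Cgas-/- over dKO, authors' DESeq2 estimate) of each gene of 7 lists around the plasma cell, in bone marrow on the left and spleen on the right, with a bar at each median. The plasma cell genes in red have medians of -0.19 and -0.15, and the ER secretory and B cell identity lists sit close to 0.

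Among 12 listed genes for the niche that keeps plasma cells alive, 1 passed the DESeq2 test in marrow and none in spleen. Csf2rb, the shared receptor chain for IL-3, IL-5 and GM-CSF, fell by 0.42 ± 0.0875 on the log2 scale in Cgas-/- marrow (DESeq2 adjusted p = 0.00115, authors' deposited table). It is expressed by eosinophils and other myeloid cells, and it has a close paralog, so its value is uncertain. Cxcl12, the chemokine that holds plasma cells in marrow, had -0.33 ± 0.128 in marrow and -0.61 ± 0.370 in spleen, by the authors' deposited tables (DESeq2 adjusted p = 0.316 in marrow). The niche list had medians of -0.16 in marrow and -0.10 in spleen. At an unadjusted p under 0.05, 3 of its genes were lower in marrow, Csf2rb included, and none in spleen by the same DESeq2 values.

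Markers of other cells were read in the same libraries, beside the same shares of all genes as the lists above. Of 10 erythroid markers, 10 were above 0 in Cgas-/- marrow (median 0.49, 1 past the DESeq2 test, Hbb-bt, and 7 higher at an unadjusted p under 0.05), and 10 were below 0 in spleens with Cgas-/- marrow (median -0.68, none past the test and 1 lower at an unadjusted p under 0.05), in the authors' deposited tables. Their means summed to 28768 of 9.71e+06 normalized counts over all genes in bone marrow, and to 19778 of 4.56e+06 in spleen. Neutrophil granule markers were below 0 in 11 of 12 in marrow (median -0.08) and 12 of 12 in spleen (median -0.62), none called by DESeq2 in the authors' deposited tables and 1 lower in spleen at an unadjusted p under 0.05. Their means summed to 1041560 normalized counts in bone marrow and 27739 in spleen. The tissues were normalized separately, so none of these sums is compared across them. T cell markers, of cells that also use Irf4 and Prdm1, were above 0 in 14 of 15 in spleen (median 0.11) and 9 of 15 in marrow (median 0.05), with none past the DESeq2 test and, at an unadjusted p under 0.05, 2 higher in spleen and 1 in marrow. Markers of plasmacytoid dendritic cells, which also use Xbp1 and Mzb1, had medians of 0.02 in marrow and -0.06 in spleen. None passed the DESeq2 test, and 3 were higher at an unadjusted p under 0.05 in marrow and none in spleen. Of the 13 listed in marrow, 7 were above 0 and 6 below, and of the 15 in spleen 7 were above and 8 below. The 2 with the smallest p in marrow were Tcf4, at 0.32 ± 0.0875 (DESeq2 adjusted p = 0.0534), and Irf8, at 0.23 ± 0.0741, in the authors' deposited table. Of 7 marrow markers, 5 were above 0 in marrow, and 2 were higher at an unadjusted p under 0.05. Dntt, the polymerase of V(D)J joining, was past the DESeq2 test there, at 0.64 ± 0.166 in the authors' deposited table (adjusted p = 0.0311). Vpreb1, at 0.76 ± 0.215, did not pass (DESeq2 adjusted p = 0.0638). None of 9 spleen markers passed in spleen, where 1 was lower at an unadjusted p under 0.05. Stromal, endothelial and epithelial markers were listed for 8 of 12 genes in marrow and 9 of 12 in spleen, none past the DESeq2 test or an unadjusted p under 0.05. All listed markers had a mean above 0, as a gene with a fold change must, so listing alone does not show that a cell type was present. The part of these other cells in the values of Xbp1, Prdm1 and the other members was not tested.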

How the data were processed

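RNA of 18 libraries, 8 of bone marrow and 10 of spleen, was extracted with the SPLIT kit, and libraries were made with QuantSeq (forward), per the labels' protocols. Per the submitters' processing notes, the authors used STAR 2.6.1, bcl2fastq 1.8.4, Partek and DESeq2 on the build mm10. The counting tool, strand, annotation and gene filter were not given in the sources used here. Both tables analysed are the authors' deposited DESeq2 tables. The mean normalized count is a signal the authors averaged over the compared libraries, with size factors divided out, per the file headers. The authors' log2 fold change and its error were taken as deposited. The Wald score is their ratio, as deposited, and a further ranking score was not used. The authors' p-value is the normal p of the Wald score, and the adjusted p-value is its Benjamini-Hochberg value over the table, as recomputation from the deposited values showed.

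The labels do not say that each library is from another mouse, so the spread that p-values measure may be technical. No count test was run. Intervals are 95%, from the deposited errors. Group means were solved from the deposited mean and fold change for groups of equal size, and variation between libraries from the error, as error times ln 2 times the root of n over 2; both are approximations without a spread of their own. The tissue difference used a two-sided normal test adjusted by Benjamini-Hochberg over 13776 genes, and was tested on simulated data. The members and lists were chosen with earlier results of these data known. Genes named beside the members are Cgas, Trex1, called genes of each list and, mainly for the lists around the plasma cell, the 2 genes with the smallest p in each tissue; Mpo, Cr2, Cxcl13 and Madcam1 are named as fixed tissue markers, and other names are marked. Symbols were matched to RefSeq synonyms where needed (Cgas is listed as Mb21d1 in the spleen table). Lists for bone marrow, spleen, stromal and the other cells above were read for their means and fold changes. Python 3.11.15, pandas 2.3.3, numpy 2.4.6, scipy 1.17.1 and matplotlib 3.10.9 were used.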

Additional observations from a re-analysis of the deposited data

Results flagged for a closer look

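The log2 fold change of Trex1 differed between the tissues. It was 2.71 in spleen and 1.45 in bone marrow, a difference of 1.26 ± 0.267 (standard error; normal test of the difference with Benjamini-Hochberg adjustment over all genes of both of the authors' deposited tables, adjusted p = 0.00432). It is a targeted gene and no plasma cell gene.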

How the results depend on the processing

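With an adjusted p of 0.1, with adjustment over genes of mean at least 20 and with fold changes centred on the median, 0 members were called in either tissue and 0 differed between tissues, as with the deposited values. The smallest adjusted p among members lay between 0.226 and 0.269 in bone marrow and was at least 0.834 in spleen over these settings. Adjustment was by DESeq2 for the deposited values. For genes of mean at least 20, Benjamini-Hochberg was applied anew to the DESeq2 p-values. For centred fold changes it was applied to new normal p-values. Medians stayed between -0.23 and -0.19 in marrow and between -0.16 and -0.15 in spleen. Centring moved each fold change by the median of all such genes, -0.003 in marrow and 0.006 in spleen, too little to turn the direction of any member, and the other settings leave fold changes as they are. No paired analysis was possible because the tables hold no values per library, and for the same reason no library could be left out. Library depth is unknown, so what depth and what the spread between libraries add to each error cannot be told apart; the lowest mean of a member was 12.6 normalized counts, for Tnfrsf17 in marrow.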
